A study of Mus musculus with 50 samples.

Results

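Described here are 10 genes that encode transcription factors of the oligodendrocyte lineage, the glia that wrap axons of the brain and spinal cord in myelin. They are the basic helix-loop-helix factors Olig1 and Olig2, the SOXE factors Sox10 and Sox8, the homeodomain factors Nkx2-2 and Nkx6-2, and Myrf, Zfp488, Tcf7l2 and Zeb2. They were picked by symbol as known regulators of the lineage and are 10 of the 39056 genes in the deposited gene table. All 10 passed the filter on low counts, along with 16460 genes tested in all, themselves included. They were read in 50 bulk RNA-seq libraries of mouse developing oligodendrocytes from a study of how cells without NRF2, a transcription factor of the oxidative stress response, differ from wild-type cells under 2 kinds of stress.

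The genotypes are Nrf2 -/- (homozygous null for the Nrf2 gene, Nfe2l2, with 3 libraries in each group) and wild type (2 libraries in each group). Each was treated with thapsigargin, an inhibitor of the calcium pump of the endoplasmic reticulum, labelled 200 uM, for 1 or 8 h. Other plates received IFN-γ, an inflammatory cytokine, at 200 U/ml for 1, 8, 24 or 48 h, or were left untreated for the same 4 times. Cells of all 20 groups were of C57BL/6 background: precursors were purified by immunopanning from cortices of pups 6 days old, passaged 2 times and given 12 to 14 h to differentiate, so every hour counts from an already differentiating culture. The tissue tag of the labels says whole brain, where the growth protocol says cortex. The labels state neither how many animals were pooled nor which part of Nfe2l2 is deleted.

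Oligodendrocyte precursors leave the cell cycle and switch on myelin genes under the control of a small network of factors. OLIG2 specifies the lineage and recruits chromatin remodellers, and OLIG1, encoded beside it, promotes maturation and repair of myelin. SOX10 is present from precursor to myelinating cell and activates myelin genes directly, and SOX8 is a related factor with overlapping function. NKX2-2 is best known for the onset of differentiation and NKX6-2 for maturation and the organisation of myelin. MYRF is a membrane-bound factor that cleaves itself, enters the nucleus and drives the myelin genes in postmitotic cells. ZFP488 is a corepressor that works with OLIG2, TCF7L2 is the nuclear effector of Wnt signalling that also partners with differentiation factors, and ZEB2 (also called SIP1) is a repressor that dampens BMP and Wnt signalling.

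Promoter windows are shown for Sox8, Zfp488, Tcf7l2 and Zeb2, which fell together under IFN-γ at 8 h. Each holds 250 bases before to 50 bases after a RefSeq transcription start of GRCm38.p6, printed 5′ to 3′ on the strand of the gene. Capitals mark the letters searched for, on both strands: CANNTG (an E-box, the form that helix-loop-helix factors bind), ACAAAG (a SOX or TCF core) and ACAATG (a SOX core). TTCNNNGAA (GAS, the gamma-activated site) was searched for too and is in none of the printed windows. CANNTG reads the same on both strands, and no matches in the printed windows overlap. Of 32851 mouse promoters of this length, CANNTG occurs in 72.3%, ACAAAG in 18.7%, ACAATG in 12.6% and TTCNNNGAA in 8.30%. The Sox8 and Zfp488 windows hold an E-box each, and the printed Tcf7l2 window holds ACAATG 2 times on the reverse strand. For Zeb2 the window at the upstream start is given.
Sox8 (chr17:25570637-25570936, minus strand): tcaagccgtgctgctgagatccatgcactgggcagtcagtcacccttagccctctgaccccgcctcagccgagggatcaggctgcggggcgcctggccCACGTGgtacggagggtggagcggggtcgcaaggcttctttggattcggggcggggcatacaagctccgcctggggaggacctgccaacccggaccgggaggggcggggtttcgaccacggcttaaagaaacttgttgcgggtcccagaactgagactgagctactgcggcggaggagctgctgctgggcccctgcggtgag
Zfp488 (chr14:33978715-33979014, minus strand): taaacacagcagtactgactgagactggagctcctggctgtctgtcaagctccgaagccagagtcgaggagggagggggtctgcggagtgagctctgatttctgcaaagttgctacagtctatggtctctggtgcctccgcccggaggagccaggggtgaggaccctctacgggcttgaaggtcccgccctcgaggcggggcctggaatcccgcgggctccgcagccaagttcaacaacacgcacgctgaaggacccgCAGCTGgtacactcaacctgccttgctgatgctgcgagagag
Tcf7l2 (chr19:55741560-55741859, plus strand): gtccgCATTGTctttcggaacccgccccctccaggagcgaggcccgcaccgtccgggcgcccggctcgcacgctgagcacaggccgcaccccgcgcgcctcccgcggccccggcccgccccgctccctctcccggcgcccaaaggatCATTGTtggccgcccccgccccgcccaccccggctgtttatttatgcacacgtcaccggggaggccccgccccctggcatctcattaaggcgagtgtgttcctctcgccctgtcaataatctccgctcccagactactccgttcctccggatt
Zeb2, upstream start (chr2:45117393-45117692, minus strand): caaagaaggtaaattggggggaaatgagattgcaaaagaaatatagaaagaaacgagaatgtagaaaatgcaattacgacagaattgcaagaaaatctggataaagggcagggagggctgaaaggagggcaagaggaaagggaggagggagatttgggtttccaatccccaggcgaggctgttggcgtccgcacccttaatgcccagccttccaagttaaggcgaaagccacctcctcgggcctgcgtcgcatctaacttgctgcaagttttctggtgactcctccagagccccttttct
The upstream Zeb2 window holds none of these patterns, but other Zeb2 windows, not printed, do. The overlapping windows at chr2:45113230-45113529 and chr2:45113204-45113503 hold TTCNNNGAA. The window at chr2:45110228-45110527 holds ACAAAG, as does a Tcf7l2 window at chr19:55895071-55895370, also not printed. By symbol, 7 of the 10 members matched the RefSeq table, with 11 windows. The Nkx2-2, Nkx6-2 and Olig2 windows hold 3, 1 and 0 E-boxes. These matches are letters in a window and were not measured as binding sites.

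The library totals ran between 32.3 and 54.7 M counted reads (median 36 M). Nfe2l2 was at 0.0973 to 0.859 CPM (read counts scaled to a common library size) in 29 of the 30 Nrf2 -/- libraries, against 5.12 to 70.4 CPM in the 20 wild-type libraries. The exception is the library labelled Nrf2 -/- untreated 8 h replicate 3, with 7.62 CPM. Calls of members over both genotypes that change when it is left out are pointed out. In 3 further libraries, replicate 2 of each Nrf2 -/- group at 8 h, the title and the genotype tag disagree; the title was followed and their Nfe2l2 was at 0.178 to 0.669 CPM. Markers of the lineage were high in every library: the 4 mature oligodendrocyte markers summed to 686 to 30657 CPM and the 4 precursor markers to 1171 to 3634 CPM. Astrocyte markers summed to 52.9 to 320 CPM (6 of 6 tested), neuronal markers to 7.99 to 29 CPM and Schwann cell markers to 2.32 to 4.89 CPM. Aldoc led the astrocyte markers with a median of 184 CPM, followed by Slc1a2 at 11.2 CPM. Medians of Gfap, Aldh1l1, Aqp4 and Gja1 were 3.81, 1.23, 1.09 and 0.0778 CPM. Microglial markers summed to 1.07 to 7.62 CPM, with Aif1 at 0 in all 50 libraries, and endothelial, mural and fibroblast markers to 0.141 to 3.64 CPM, with Cldn5 at 0 in all 50. The labels do not say that replicates came from separate cultures or animals, so p-values measure the spread between these libraries. In bulk RNA, fewer cells of a type and less RNA per cell cannot be told apart.

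By position (GRCm38, from the GENCODE M21 annotation), Olig1 (chr16:91269772-91271933, plus strand) lies 41.1 kb from Olig2 (chr16:91225457-91228677, plus strand). Sox10 is at chr15:79154908-79165240 and Sox8 at chr17:25565892-25570686, both on the minus strand. Nkx2-2 is at chr2:147177546-147194243 and Nkx6-2 at chr7:139579376-139582797, both on the minus strand. Myrf (chr19:10208272-10240748, minus strand), Zfp488 (chr14:33967070-33978764, minus strand), Tcf7l2 (chr19:55741820-55933654, plus strand) and Zeb2 (chr2:44983632-45117395, minus strand) complete the list. Zeb2 and Nkx2-2 share their chromosome with Nfe2l2, at 30.6 and 71.5 Mb from it. The strand setting of the read counting is not given in the sources used here, so reads of overlapping genes cannot be told apart by strand. Exons of Sox8 overlap an antisense gene, 2810468N07Rik (mean count 4103.4, against 12228 for Sox8), and exons of Nkx6-2 overlap Inpp5a on the other strand (930.1, against 868.5 for Nkx6-2). Nkx2-2 and Zeb2 also have annotated antisense partners.

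Every member was expressed in every library, with read counts from 290 at the lowest (Nkx6-2) to 41568 at the highest (Olig1). Levels of different genes are compared as CPM per kb of exon, as mean ± SD (n = 5, both genotypes). At 1 h without treatment the order was Olig1 at 408 ± 14.7, Sox10 at 213 ± 15.4, Olig2 at 213 ± 8.75 and Sox8 at 161 ± 27.3. Then came Zeb2 at 30.7 ± 1.3, Myrf at 26.5 ± 2.13, Zfp488 at 22.9 ± 1.36, Nkx2-2 at 15.1 ± 2.31, Nkx6-2 at 5.55 ± 1.03 and Tcf7l2 at 5.52 ± 0.395. Neighbours in that order whose libraries overlapped were Sox10 and Olig2, Olig2 and Sox8, Zeb2 and Myrf, Myrf and Zfp488, and Nkx6-2 and Tcf7l2. By 48 h without treatment Sox10 led at 268 ± 14.0 CPM per kb, ahead of Olig1 at 177 ± 3 and Olig2 at 103 ± 2.34, with no overlap between these neighbours. Myrf was then the 4th at 64.1 ± 18.7 CPM per kb, overlapping Sox8 at 56.3 ± 5.97, and Nkx2-2 was the last at 4.83 ± 1.04. After 8 h of thapsigargin Sox10 at 145 ± 14.6, Olig2 at 116 ± 11 and Olig1 at 110 ± 10.3 CPM per kb overlapped as neighbours. Tcf7l2 was the lowest by this measure, at 2.58 ± 1.01.

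**Figure D1:**
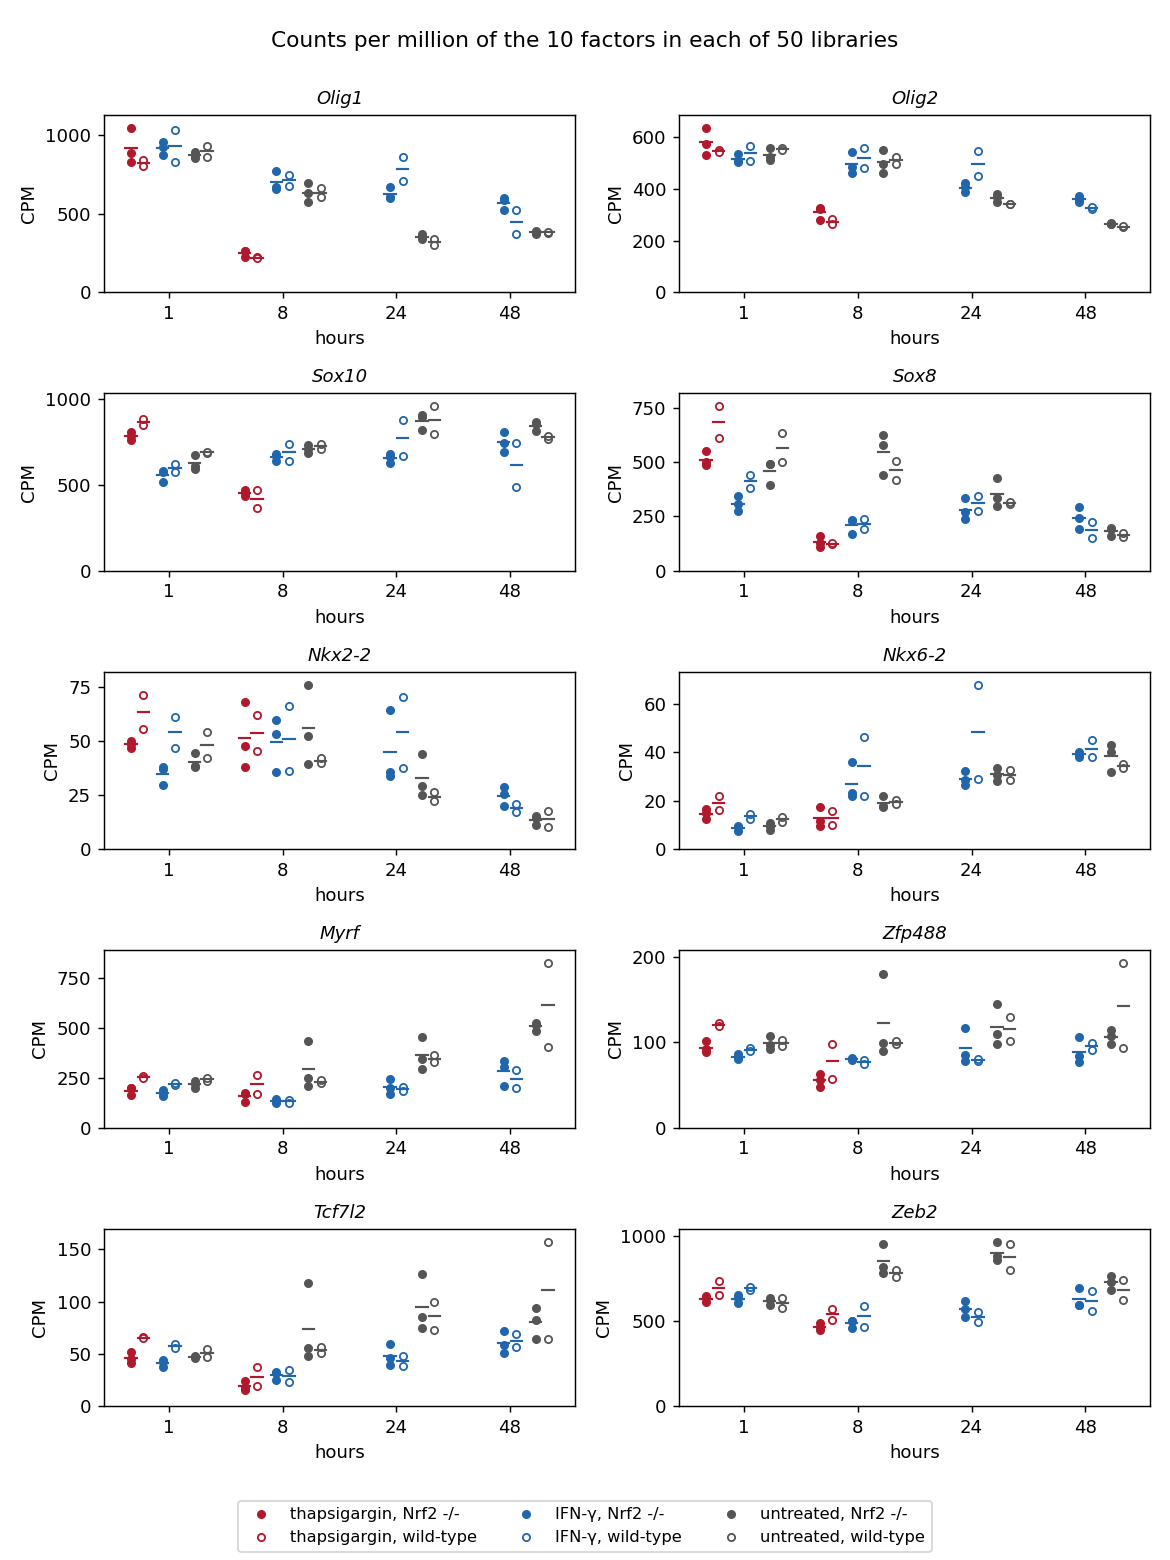
Levels in CPM (vertical axis, linear, from 0, 1 panel per gene) of the 10 genes in all 50 libraries by hour; filled points are Nrf2 -/- and open points wild-type libraries, colours give the treatment, and the short lines are group means. Olig1 reached 224 to 263 CPM in Nrf2 -/- cells after 8 h of thapsigargin, and Myrf in untreated wild-type cells at 48 h had 401 and 821 CPM, the widest gap between its replicates.

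The untreated course, averaged over the genotypes, shows how the factors moved as the cells matured. All 14 myelin genes of a set list rose between 1 and 48 h (median log2 fold 3.83; Mobp 7.59, Mal 7.28), and all 4 precursor markers fell. From 1 to 48 h, 5 of 10 members rose (34.5% of all genes tested did) and 4 fell (33.6% of all genes did), shares not far from the background. Nkx6-2, Myrf, Tcf7l2, Sox10 and Zeb2 rose. Nkx2-2, Sox8, Olig1 and Olig2 fell, and Zfp488 was not called. In 8 of 10 members the libraries at 48 h and at 1 h did not overlap, as in 55.9% of all genes. Astrocyte markers moved too, with 5 of 6 rising (Gfap 3.18, Aqp4 4.29 on the log2 scale). Their summed level was 217 to 262 CPM at 48 h and 178 to 207 CPM at 1 h, and their part in these values was not tested.

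Olig1 fell in steps. Nrf2 -/- libraries had 383, 374 and 390 CPM of Olig1 at 48 h, against 874, 891 and 853 CPM at 1 h, and wild-type libraries had 377 and 385 CPM, against 932 and 860 CPM. The fold was -1.21 ± 0.08 (log2 ± SE, adjusted p = 5.51e-17, edgeR quasi-likelihood test with Benjamini-Hochberg adjustment, as for all adjusted p-values here). Its fall was -0.48 ± 0.08 between 1 and 8 h (3.29e-06) and -0.91 ± 0.08 between 8 and 24 h (adjusted p = 9.86e-13). Its value from 24 to 48 h was 0.18 ± 0.08 (adjusted p = 0.0524), with every library at 48 h above every library at 24 h. DESeq2 called that step (adjusted p = 0.0406), and so did edgeR with DESeq2 size factors (0.0409) and edgeR without Nrf2 -/- untreated 24 h replicate 3 (0.0496). Olig2 fell later: its libraries had 263 to 266 CPM in Nrf2 -/- and 252 and 256 CPM in wild-type cells at 48 h, against 509 to 555 CPM and 558 and 551 CPM at 1 h. Olig2 fell by 1.06 (SE 0.06, adjusted p = 2.45e-19), in steps of -0.52 ± 0.06 from 8 to 24 h (7.56e-10) and -0.45 ± 0.06 from 24 to 48 h (adjusted p = 1.77e-08). The ratio of Olig1 to Olig2, per kb, therefore had medians of 1.96, 1.48, 1.14 and 1.73 over the 4 hours, lowest at 24 h (1.04 to 1.18 in its 5 libraries).

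The SOXE pair parted. Sox10 had 857, 865 and 816 CPM in Nrf2 -/- and 770 and 783 CPM in wild-type libraries at 48 h, against 590, 676 and 611 CPM and 686 and 692 CPM at 1 h. The hours did not overlap (0.30 ± 0.08, adjusted p = 8.63e-04), and most of the Sox10 rise lay between 8 and 24 h (0.29 ± 0.08, adjusted p = 0.00245). In wild-type cells alone the Sox10 fold was 0.17 (adjusted p = 0.239). Sox8 had 193, 195 and 160 CPM in Nrf2 -/- and 154 and 176 CPM in wild-type libraries at 48 h, against 396, 491 and 490 CPM and 499 and 634 CPM at 1 h. Sox8 fell by 1.55 (SE 0.15, adjusted p = 3.03e-11), by 0.61 from 8 to 24 h (SE 0.14, adjusted p = 6.22e-04) and by 0.93 from 24 to 48 h (SE 0.14, adjusted p = 1.56e-06). The ratio of Sox8 to Sox10 per kb was 0.191 to 0.221 in the libraries at 48 h, against 0.656 to 0.896 at 1 h.

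The homeodomain genes moved in opposite directions. Nkx2-2 had 15.2, 14.7 and 11.4 CPM in Nrf2 -/- and 10.4 and 17.7 CPM in wild-type libraries at 48 h, against 38.1, 44.7 and 38.3 CPM and 42.1 and 54.3 CPM at 1 h (-1.67 ± 0.24, adjusted p = 3.19e-07). It fell by 0.76 from 8 to 24 h (SE 0.23, adjusted p = 0.00681) and by 1.02 from 24 to 48 h (SE 0.24, adjusted p = 6.26e-04). Nkx6-2 had 40.1, 42.9 and 32 CPM in Nrf2 -/- and 35.2 and 33.6 CPM in wild-type libraries at 48 h, against 9.75, 10.7 and 7.95 CPM and 11.3 and 13.3 CPM at 1 h. Its rise of 1.75 ± 0.21 (adjusted p = 5.02e-09) was the largest of the 10 members. It was called from 1 to 8 h (0.84 ± 0.21, adjusted p = 0.00155) and from 8 to 24 h (0.67 ± 0.20, adjusted p = 0.00532).

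Myrf had 525, 515 and 482 CPM in Nrf2 -/- and 401 and 821 CPM in wild-type libraries at 48 h, against 220, 232 and 201 CPM and 233 and 250 CPM at 1 h. It rose by 1.28 ± 0.18 (adjusted p = 2.30e-07), with calls for 8 to 24 h (0.44 ± 0.18, 0.0459) and 24 to 48 h (0.66 ± 0.18, adjusted p = 0.00266). The last of these rests on wild-type untreated 48 h replicate 2: without it the Myrf fold was 0.35 (adjusted p = 0.117). The call for 8 to 24 h ended when any of 8 untreated libraries was left out. In Nrf2 -/- cells these were replicate 1 (0.33, adjusted p = 0.156) and 2 (0.0509) at 24 h and replicate 1 (0.128) and 2 (0.103) at 8 h. In wild-type cells they were replicate 1 (adjusted p = 0.071) and 2 (0.131) at 24 h and replicate 1 (0.125) and 2 (0.0865) at 8 h. That same wild-type replicate 2 at 48 h was the highest of its hour for Tcf7l2 and Zfp488 too. Tcf7l2 had 94.2, 82.3 and 64.6 CPM in Nrf2 -/- and 64.3 and 157 CPM in wild-type libraries at 48 h, against 46.7, 45.7 and 48.3 CPM and 47.2 and 54.4 CPM at 1 h. It rose by 0.95 ± 0.23 (adjusted p = 5.75e-04), or by 0.56 (0.0388) without that replicate. Zfp488 had 93.4 to 192 CPM at 48 h and 91.9 to 107 CPM at 1 h over the libraries of both genotypes (0.32 ± 0.17, adjusted p = 0.0985). It was called without the wild-type replicate 1 of 48 h (0.54, adjusted p = 0.0068).

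Zeb2 was highest in the middle of the course. Its untreated libraries had 684, 762 and 731 CPM in Nrf2 -/- and 625 and 739 CPM in wild-type cells at 48 h, against 964, 878 and 859 CPM and 799 and 954 CPM at 24 h (-0.34 ± 0.07, adjusted p = 8.09e-05). At 8 h it had 819, 784 and 954 CPM in Nrf2 -/- and 800 and 758 CPM in wild-type libraries, against 636, 593 and 621 CPM and 633 and 578 CPM at 1 h (0.41 ± 0.07, adjusted p = 7.06e-06). The Zeb2 libraries of either step did not overlap. From 1 to 48 h it rose by 0.20 ± 0.07 (adjusted p = 0.00944), a call that ended without the wild-type replicate 2 of 48 h (0.109) or of 1 h (0.0608).

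By interval, 2 members rose and 1 fell between 1 and 8 h (20% and 16.7% of all genes), 3 rose and 4 fell between 8 and 24 h (23.3% and 24.4%), and 1 rose and 4 fell between 24 and 48 h (27.4% and 25.7%). The member medians of these steps were 0.14, 0.10 and -0.03 on the log2 scale, against -0.01, -0.02 and 0.03 over all genes tested. The library labelled Nrf2 -/- untreated 8 h replicate 3 had 118 CPM of Tcf7l2, 431 CPM of Myrf and 179 CPM of Zfp488, against 47.6 to 56.3 CPM, 208 to 248 CPM and 89.6 to 101 CPM in the other 4 untreated libraries at 8 h. Without it, the step from 8 to 24 h was called for Tcf7l2 (0.78, adjusted p = 0.00269, against 0.52 and 0.0601 with it) and for Zeb2 (0.17, adjusted p = 0.0437). Tcf7l2 was also called without the Nrf2 -/- replicate 3 of 24 h (0.60, adjusted p = 0.0395). With all libraries kept, that step was called for Tcf7l2 by DESeq2 (0.54, adjusted p = 0.0439), by edgeR without robust estimation (0.0395) and with the kallisto sums (0.047), and for Zeb2 with the kallisto sums (0.16, adjusted p = 0.0357).

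**Figure D2:**
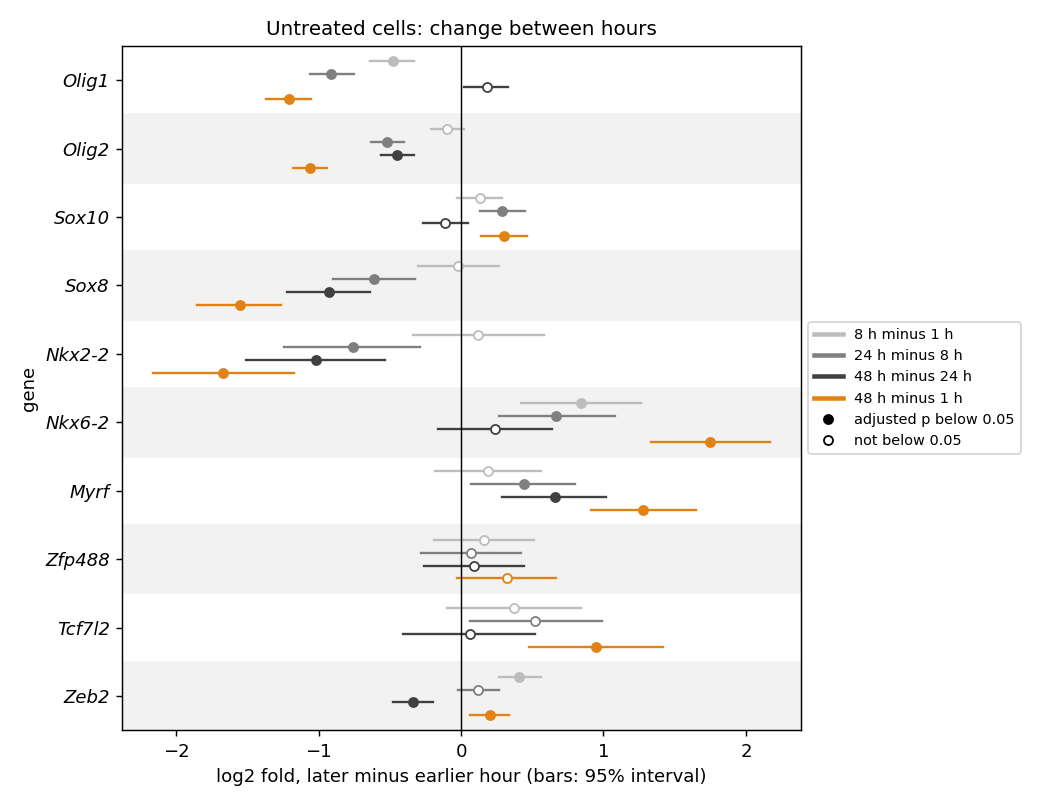
Log2 folds between hours in untreated cells (horizontal axis) for each gene, averaged over the genotypes; bars are 95% intervals and filled points have an adjusted p below 0.05. Nkx6-2 and Myrf end at 1.75 and 1.28 from 1 to 48 h, and Nkx2-2, Sox8, Olig1 and Olig2 between -1.67 and -1.06.

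Under IFN-γ, Sox8, Myrf, Tcf7l2, Zeb2 and Zfp488 fell by 8 h. Olig1, Olig2 and Nkx2-2 were higher than in untreated cells at 24 h. From 8 to 24 h their treated means went from 704 to 690 CPM (Olig1), 505 to 441 CPM (Olig2) and 50.2 to 48.5 CPM (Nkx2-2). The untreated means went from 633 to 341 CPM, 505 to 356 CPM and 50.0 to 29.4 CPM. At 1 h Sox8 was the 1 member of 10 called, as lower (0.911% of all genes were). None was called as higher (2.73% of all genes were) or had an unadjusted p below 0.05 in that direction, and DESeq2 made the same number of calls. At 8 h, 5 members were lower (20.4% of all genes were) and 1 was higher (19.4%). At 24 h, 3 members were higher (27.6%) and 5 lower (28.4%), and at 48 h the counts were again 3 higher (27.3%) and 5 lower (28.5%). The member medians were -0.03, -0.28, -0.23 and -0.01 log2 at the 4 hours, against 0, -0.02, 0 and -0.01 over all genes. Libraries did not overlap between treated and untreated cells in 0, 5, 5 and 2 of 10 members, as in 4.61%, 29.7%, 41.6% and 38.5% of all genes.

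Sox8 was the first to be called. At 1 h its libraries had 306, 344 and 275 CPM in IFN-γ-treated and 396, 491 and 490 CPM in untreated Nrf2 -/- cells. In wild-type cells Sox8 had 443 and 383 CPM in treated and 499 and 634 CPM in untreated libraries. Treated libraries lay below untreated ones within each genotype, as they did at that hour for Sox10, Myrf and Zfp488, which were not called. The fold over both was -0.51 ± 0.14 (adjusted p = 0.0302), and leaving out any of 7 libraries ended the call. In Nrf2 -/- cells these were the treated replicates 1 (adjusted p = 0.059) and 3 (0.0924) and the untreated replicates 2 (0.0748) and 3 (0.0718). In wild-type cells they were the treated replicates 1 (adjusted p = 0.0639) and 2 (0.189) and the untreated replicate 2 (-0.42, 0.27). At 8 h Sox8 had 169, 230 and 234 CPM in treated and 440, 577 and 625 CPM in untreated Nrf2 -/- cells. In wild-type cells Sox8 had 240 and 193 CPM in treated and 420 and 507 CPM in untreated libraries. These groups did not overlap, and Sox8 fell by 1.24 (SE 0.14, adjusted p = 1.03e-08). By 24 h the fold was -0.16 ± 0.14 (adjusted p = 0.35, 95% interval -0.45 to 0.13). At 48 h it was 0.31 ± 0.14 (adjusted p = 0.0669), called as higher without the Nrf2 -/- treated replicate 3 (0.38, adjusted p = 0.0265) or the wild-type treated replicate 1 (0.45, 0.0195). The response of Sox8 at 48 h differed from that at 8 h by 1.55 ± 0.20 (adjusted p = 1.60e-07).

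Myrf, whose product drives myelin genes, had 125, 142 and 136 CPM in IFN-γ-treated and 208, 248 and 431 CPM in untreated Nrf2 -/- cells at 8 h. In wild-type cells Myrf had 141 and 126 CPM in treated and 224 and 238 CPM in untreated libraries. All treated libraries lay below all untreated ones (-0.96 ± 0.18, adjusted p = 5.25e-05, and -1.06 to -0.78 in fits that left out 1 library). At 24 h the treated libraries had 243, 167 and 198 CPM in Nrf2 -/- and 204 and 186 CPM in wild-type cells, against 451, 342 and 296 CPM and 326 and 363 CPM untreated (-0.83 ± 0.18, adjusted p = 2.09e-04). At 48 h they had 332, 305 and 207 CPM and 201 and 289 CPM, against 525, 515 and 482 CPM and 401 and 821 CPM untreated. The fold of Myrf was then -1.09 ± 0.18 (adjusted p = 5.82e-06), again without overlap. Its response at 48 h and at 8 h differed by -0.12 ± 0.25 (adjusted p = 0.752, 95% interval -0.64 to 0.40).

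Tcf7l2, the Wnt effector, had 24.7, 32 and 32.5 CPM in treated and 47.6, 55.4 and 118 CPM in untreated Nrf2 -/- cells at 8 h. In wild-type cells Tcf7l2 had 34.6 and 22.8 CPM in treated and 51.1 and 56.3 CPM in untreated libraries. The Tcf7l2 fold over both genotypes was -1.11 ± 0.24 (adjusted p = 2.51e-04, and -1.27 to -0.85 in fits that left out 1 library). At 24 h it had 38.2 to 59.3 CPM in treated and 72.5 to 126 CPM in untreated libraries of both genotypes, without overlap (-0.99 ± 0.23, adjusted p = 4.93e-04). At 48 h the ranges overlapped, 50.7 to 72.2 CPM in treated and 64.3 to 157 CPM in untreated libraries (-0.62 ± 0.23, adjusted p = 0.0234). That last call ended without the Nrf2 -/- treated replicate 3 (adjusted p = 0.0539) or untreated replicate 1 (0.0546), or without the wild-type treated replicate 1 (0.12) or untreated replicate 2 (-0.22, 0.468).

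Zfp488, the OLIG2-associated corepressor, had 79.5, 80.8 and 81.8 CPM in treated and 89.6, 99.4 and 179 CPM in untreated Nrf2 -/- cells at 8 h. In wild-type cells Zfp488 had 79.1 and 74.6 CPM in treated and 97.3 and 101 CPM in untreated libraries. The groups did not overlap, but the fold of -0.49 ± 0.17 (adjusted p = 0.0239) was -0.30 (0.135) without the library labelled Nrf2 -/- untreated 8 h replicate 3. Its folds at 24 and 48 h were -0.43 ± 0.17 (adjusted p = 0.0335) and -0.42 ± 0.17 (0.037), with overlapping libraries. The Zfp488 call at 8 h also ended when the wild-type treated replicate 1 (0.0591) or 2 (0.0769) or untreated replicate 2 (0.0645) was left out. At 24 h it ended without the Nrf2 -/- treated replicate 2 (0.103) or 3 (0.0648) or untreated replicate 1 (-0.31, 0.149), and without the wild-type treated replicate 1 (0.112) or 2 (0.0754) or untreated replicate 2 (0.189). At 48 h it ended without the Nrf2 -/- treated replicate 2 (0.0633) or 3 (0.0839) or untreated replicate 1 (0.0671) or 2 (0.0552). It also ended there without the wild-type treated replicate 1 (0.0869) or 2 (0.132) or untreated replicate 2 (-0.12, 0.619), and without the wild-type untreated replicate 1 the fold was -0.64 (0.00211).

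Zeb2, the repressor of BMP and Wnt signals, had 459, 501 and 497 CPM in treated and 819, 784 and 954 CPM in untreated Nrf2 -/- cells at 8 h. In wild-type cells Zeb2 had 590 and 463 CPM in treated and 800 and 758 CPM in untreated libraries. The Zeb2 fold over both genotypes was -0.69 ± 0.07 (adjusted p = 6.21e-11). At 24 h it had 615, 569 and 526 CPM in treated and 964, 878 and 859 CPM in untreated Nrf2 -/- cells. In wild-type cells Zeb2 had 551 and 496 CPM in treated and 799 and 954 CPM in untreated libraries. The Zeb2 fold over both genotypes was -0.70 ± 0.07 (adjusted p = 1.98e-11). At both hours the groups were fully apart. At 48 h the Zeb2 fold had shrunk to -0.18 ± 0.07 (adjusted p = 0.0267), and the difference from the 8 h response was 0.51 ± 0.10 (adjusted p = 4.95e-05). The 48 h call ended without the Nrf2 -/- treated replicate 1 (0.0629) or 3 (0.063) or untreated replicate 2 (0.0672), or without the wild-type treated replicate 1 (-0.09, 0.381) or untreated replicate 2 (-0.11, 0.229).

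Olig1 and Olig2 were not called at 1 or 8 h of IFN-γ (folds of 0.06 and 0.16 for Olig1, -0.05 and 0 for Olig2). At 24 h Olig1 had 672, 608 and 602 CPM in treated and 354, 339 and 368 CPM in untreated Nrf2 -/- cells. In wild-type cells Olig1 had 862 and 705 CPM in treated and 342 and 303 CPM in untreated libraries. Every treated library lay above every untreated one, and the Olig1 fold was 1.05 ± 0.08 (adjusted p = 5.90e-15). At 48 h it had 600, 585 and 523 CPM in treated and 383, 374 and 390 CPM in untreated Nrf2 -/- cells. In wild-type cells Olig1 had 372 and 525 CPM in treated and 377 and 385 CPM in untreated libraries. The Olig1 fold over both genotypes was 0.41 ± 0.08 (adjusted p = 2.29e-05). There the 372 CPM of wild-type IFN-γ 48 h replicate 1 overlapped the untreated range. Olig2 had 421, 387 and 405 CPM in treated and 369, 349 and 379 CPM in untreated Nrf2 -/- cells at 24 h. In wild-type cells Olig2 had 545 and 448 CPM in treated and 340 and 342 CPM in untreated libraries. The Olig2 fold over both genotypes was 0.34 ± 0.06 (adjusted p = 2.47e-06). At 48 h Olig2 had 355, 371 and 350 CPM in treated and 266, 263 and 263 CPM in untreated Nrf2 -/- cells. In wild-type cells Olig2 had 320 and 330 CPM in treated and 252 and 256 CPM in untreated libraries. The Olig2 fold over both genotypes was 0.40 ± 0.06 (adjusted p = 1.80e-07), and the groups did not overlap.

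By genotype, Olig2 at 24 h was at 0.15 ± 0.07 in Nrf2 -/- cells (adjusted p = 0.10) and 0.54 ± 0.09 in wild-type cells (3.13e-06). Olig1 at 48 h was at 0.57 ± 0.10 in Nrf2 -/- cells (adjusted p = 5.32e-06) and 0.24 ± 0.12 in wild-type cells (0.109). The treated libraries at 24 h, with 602 to 862 CPM of Olig1, overlapped the untreated libraries of 8 h (576 to 692 CPM). Only wild-type IFN-γ 24 h replicate 1, at 862 CPM, reached the untreated range of 1 h (853 to 932 CPM). Mean Olig1 was 690 CPM in treated libraries at 24 h and 882 CPM in untreated ones at 1 h. The ratio of Olig1 to Olig2 per kb was 1.74 to 1.87 in the treated libraries at 24 h, against 1.04 to 1.18 in the untreated ones, without overlap. From 8 to 48 h the IFN-γ response of Olig2 moved up by 0.40 ± 0.08 (adjusted p = 1.23e-04). That of Olig1 moved by 0.25 ± 0.11 (adjusted p = 0.0623), called without wild-type IFN-γ 48 h replicate 1 (0.40, adjusted p = 0.00152).

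Sox10, the activator of myelin genes, was not called at 1 or 8 h of IFN-γ (-0.18 ± 0.08, adjusted p = 0.31, and -0.08 ± 0.08, adjusted p = 0.447). At 24 h it had 664, 625 and 679 CPM in treated and 896, 907 and 821 CPM in untreated Nrf2 -/- cells. In wild-type cells Sox10 had 876 and 668 CPM in treated and 957 and 797 CPM in untreated libraries. The Sox10 fold over both genotypes was -0.30 ± 0.08 (adjusted p = 0.00136). At 48 h it had 747, 808 and 689 CPM in treated and 857, 865 and 816 CPM in untreated Nrf2 -/- cells. In wild-type cells Sox10 had 487 and 745 CPM in treated and 770 and 783 CPM in untreated libraries. The Sox10 fold over both genotypes was -0.26 ± 0.08 (adjusted p = 0.00572). Over both genotypes the ranges met at 24 h and at 48 h. The 48 h call rests on the 487 CPM of wild-type IFN-γ 48 h replicate 1: without it the Sox10 fold was -0.10 (adjusted p = 0.306), and without replicate 2 it was -0.41 (1.78e-05).

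Of the homeodomain genes, Nkx2-2 was called as higher at 24 h (0.80 ± 0.23, adjusted p = 0.0037) and at 48 h (0.64 ± 0.24, 0.0243), when its untreated level had dropped. It had 64.3, 34.1 and 35.9 CPM in treated and 44, 29.5 and 24.9 CPM in untreated Nrf2 -/- cells at 24 h. In wild-type cells Nkx2-2 had 70.5 and 37.6 CPM in treated and 22.3 and 26.4 CPM in untreated libraries. The ranges overlapped in Nrf2 -/- cells and not in wild-type cells. The Nkx2-2 call at 24 h ended when the wild-type treated replicate 1 was left out (0.56, adjusted p = 0.0667). That at 48 h ended without the Nrf2 -/- treated replicate 2 (0.0537) or untreated replicate 3 (0.056), without the wild-type treated replicate 2 (0.0813) or untreated replicate 1 (0.145), and with the kallisto sums (0.49, adjusted p = 0.0653). Nkx6-2 had 23.3, 21.9 and 36.1 CPM in treated and 17.7, 17.3 and 22 CPM in untreated Nrf2 -/- cells at 8 h. In wild-type cells Nkx6-2 had 46.3 and 22.1 CPM in treated and 20.4 and 18.6 CPM in untreated libraries. It was the 1 member that rose at 8 h (0.66 ± 0.20, adjusted p = 0.00789); without wild-type IFN-γ 8 h replicate 1 the fold was 0.35 (0.197). At 24 and 48 h Nkx6-2 was not called (0.29 ± 0.19, adjusted p = 0.211, and 0.15 ± 0.19, adjusted p = 0.53), but at 24 h it was without wild-type IFN-γ 24 h replicate 2 (0.54, adjusted p = 0.0179).

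From 8 to 48 h of exposure, 3 members changed their IFN-γ response upward (Sox8, Zeb2 and Olig2; 21.4% of all genes did) and none downward (20.4% of all genes; none at an unadjusted p below 0.05, and DESeq2 also made 3 calls). The member median of that change was 0.32 log2, against 0 over all genes. Other members were called when 1 library was left out. For Olig1 it was the library labelled Nrf2 -/- untreated 8 h replicate 3 (adjusted p = 0.0361), among others, and for Sox10 the wild-type treated replicate 2 at 48 h (-0.31, 0.0105). For Nkx6-2 it was the wild-type treated replicate 2 at 8 h (-0.72, adjusted p = 0.0316), and for Tcf7l2 the wild-type untreated replicate 2 at 48 h (0.89, 0.03).

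Genes around the network moved as follows. Of the 14 myelin genes 0, 11, 13 and 13 were lower at 1, 8, 24 and 48 h of IFN-γ and none was higher, with medians of -0.05, -0.74, -1.57 and -1.31 (at 24 h Opalin -3.65, Mog -2.86 and Mbp -2.29). Of 10 inhibitors of differentiation, 4 were higher and 2 lower at 8 h (Sox11 1.87, Id3 1.11), and 1 was higher and 6 lower at 48 h (Id4 -2.55, Id1 -1.93). Of 19 tested partners and other regulators, 3 rose and 3 fell at 8 h and 9 rose and 5 fell at 24 h. Prox1 (1.86 at 8 h) and Sox9 (2.60 at 24 h) were among those that rose, and Sox5 (-1.65 at 8 h) among those that fell. Among 9 tested Wnt and BMP feedback genes, the targets most often read beside Tcf7l2 and Zeb2, 2 rose and 2 fell at 8 h (Tcf7 2.55, Bambi 1.51, Nkd1 -0.88, Smad7 -0.50). The 10 proliferation genes were all higher at 24 and 48 h (medians 1.68 and 0.71), and of the 4 precursor markers 3 were higher and 1 lower at 24 h (Cspg4 1.52, Ptprz1 1.48, Pdgfra 1.01, Lhfpl3 -0.39). These lists were chosen with results of these data known, and the part of a shift in cell stages in the members' values was not tested. Of 6 astrocyte markers 2 were higher at 8 h, and 1 was higher and 4 were lower at 48 h; their part was not tested either.

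**Figure D3:**
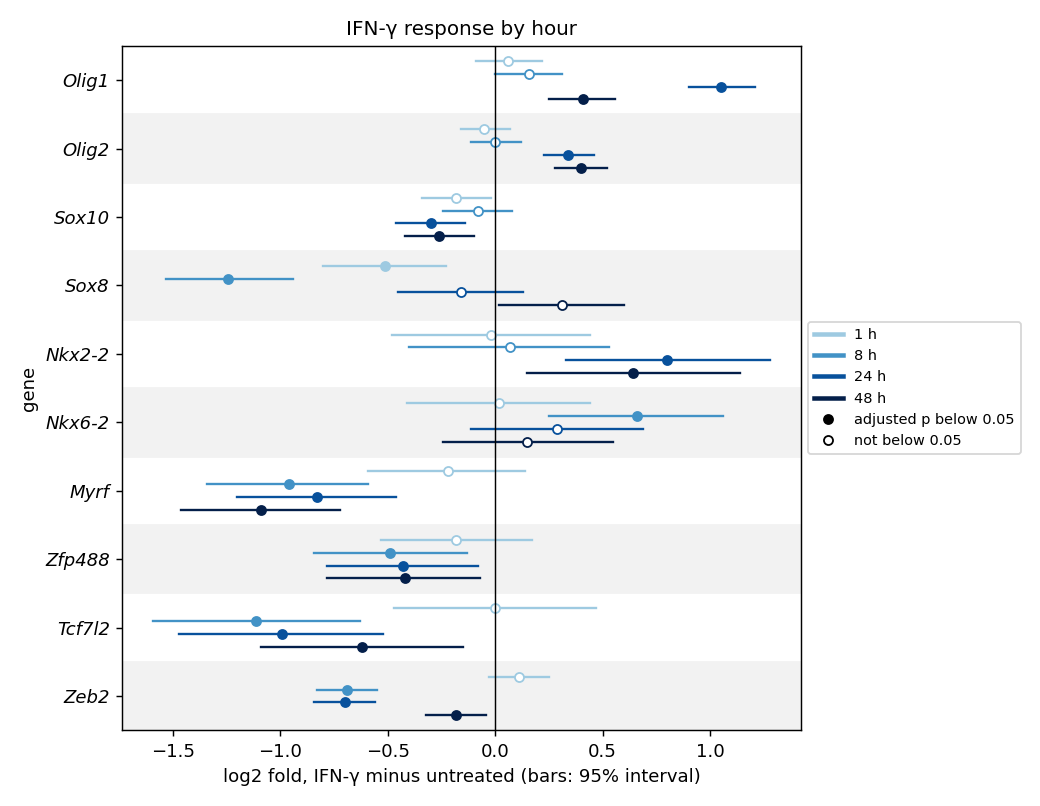
Log2 folds of IFN-γ-treated over untreated cells (horizontal axis) at the 4 hours for each gene, averaged over the genotypes; bars are 95% intervals and filled points have an adjusted p below 0.05. Sox8 goes through -0.51, -1.24, -0.16 and 0.31, Myrf stays between -1.09 and -0.83 from 8 h on, and Olig1 is highest at 24 h (1.05).

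Under thapsigargin, Sox10 and Nkx6-2 rose at 1 h, and by 8 h every member except Nkx2-2 had fallen. At 1 h, 2 members were higher (12.9% of all genes were) and none was lower (7.52%). At 8 h none was higher (34.3%) and 9 of 10 were lower (32.9%). In the directions without calls no member had an unadjusted p below 0.05, and DESeq2 called 2 and 9 members at the 2 hours. At 8 h 6 of 10 had no overlap between treated and untreated libraries, as had 51.5% of all genes, and at 1 h 1 of 10, as had 16.8%. The member median was 0.14 log2 at 1 h and -0.73 at 8 h, against 0 and 0.01 over all genes. Proliferation genes (10 of 10 lower, median -1.87), committed-stage markers (4 of 4 lower, of which Tcf7l2 is itself a member), myelin genes (10 of 14 lower, median -1.82) and mature markers (4 of 4 lower) were down at 8 h too. Of the inhibitors 6 of 10 were higher (Hes1 2.34, Id2 1.91, Id3 1.69 among them), and the others were either lower or not called. Summed over all 10 inhibitors, the level was 1039 to 1108 CPM in treated and 913 to 981 CPM in untreated libraries. Astrocyte markers, of which Aldoc was by far the most abundant, summed to 52.9 to 63.9 CPM in treated and 248 to 286 CPM in untreated libraries at 8 h. Their part, and that of the proliferation genes, was not tested.

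Olig1 had 224, 262 and 263 CPM in thapsigargin-treated and 628, 692 and 576 CPM in untreated Nrf2 -/- cells at 8 h. In wild-type cells Olig1 had 226 and 217 CPM in treated and 660 and 607 CPM in untreated libraries. The groups lay far apart, and Olig1 fell by 1.43 (SE 0.08, adjusted p = 4.10e-19). Olig2 had 279, 321 and 325 CPM in treated and 497, 549 and 461 CPM in untreated Nrf2 -/- cells. In wild-type cells Olig2 had 284 and 262 CPM in treated and 523 and 496 CPM in untreated libraries. The Olig2 fold over both genotypes was -0.80 ± 0.06 (adjusted p = 1.44e-15). The ratio of Olig1 to Olig2 per kb was 0.932 to 0.967 in the treated libraries, against 1.43 to 1.48 in the untreated ones, so here every library had less Olig1 than Olig2 per kb.

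Sox8 had 109, 130 and 161 CPM in treated and 440, 577 and 625 CPM in untreated Nrf2 -/- cells at 8 h. In wild-type cells Sox8 had 124 and 126 CPM in treated and 420 and 507 CPM in untreated libraries. Its fall of -1.96 ± 0.15 (adjusted p = 1.48e-13) was the largest of the 10 members. Sox10 had 456, 438 and 473 CPM in treated and 687, 708 and 735 CPM in untreated Nrf2 -/- cells. In wild-type cells Sox10 had 473 and 366 CPM in treated and 709 and 739 CPM in untreated libraries. The Sox10 fold over both genotypes was -0.71 ± 0.08 (adjusted p = 2.95e-10). At 1 h Sox10 had been higher: 763, 808 and 785 CPM in treated and 590, 676 and 611 CPM in untreated Nrf2 -/- cells. In wild-type cells Sox10 had 851 and 886 CPM in treated and 686 and 692 CPM in untreated libraries. The Sox10 fold over both genotypes was 0.33 ± 0.08 (adjusted p = 0.00192), and the groups did not overlap. The ratio of Sox8 to Sox10 per kb was 0.234 to 0.337 in treated and 0.580 to 0.832 in untreated libraries at 8 h.

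Nkx2-2 was the exception at 8 h, with 38.2, 47.9 and 68.1 CPM in treated and 39.6, 52.6 and 76.0 CPM in untreated Nrf2 -/- cells. In wild-type cells Nkx2-2 had 45.3 and 62.3 CPM in treated and 39.7 and 42.3 CPM in untreated libraries. The groups overlapped and the fold was 0.13 ± 0.23 (adjusted p = 0.627, 95% interval -0.33 to 0.60). Nkx6-2 was higher at 1 h (0.64 ± 0.21, adjusted p = 0.0247) and lower at 8 h (-0.58 ± 0.20, adjusted p = 0.0128). Its libraries had 12.6 to 22 CPM in treated and 7.95 to 13.3 CPM in untreated cells at 1 h, with overlap, and 9.64 to 17.6 CPM in treated and 17.3 to 22 CPM in untreated cells at 8 h. The Nkx6-2 call at 1 h ended without the Nrf2 -/- treated replicate 2 (0.0628) or untreated replicate 3 (0.0623), and without the wild-type treated replicate 2 (0.52, 0.131) or untreated replicate 1 (0.104) or 2 (0.0521). That at 8 h ended without the wild-type treated replicate 2 (-0.44, adjusted p = 0.0987).

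Tcf7l2 had 17.7, 15.2 and 23.8 CPM in treated and 47.6, 55.4 and 118 CPM in untreated Nrf2 -/- cells at 8 h. In wild-type cells Tcf7l2 had 19.2 and 37.5 CPM in treated and 51.1 and 56.3 CPM in untreated libraries. The Tcf7l2 fold over both genotypes was -1.44 ± 0.24 (adjusted p = 3.13e-06, and -1.73 to -1.18 in fits that left out 1 library). The groups did not overlap. Zeb2 had 486, 447 and 464 CPM in treated and 819, 784 and 954 CPM in untreated Nrf2 -/- cells. In wild-type cells Zeb2 had 504 and 573 CPM in treated and 800 and 758 CPM in untreated libraries. The Zeb2 fold over both genotypes was -0.70 ± 0.07 (adjusted p = 1.27e-11), and the groups did not overlap either. Zfp488 had 55.7, 47.3 and 63.3 CPM in treated and 89.6, 99.4 and 179 CPM in untreated Nrf2 -/- cells. In wild-type cells Zfp488 had 57.5 and 98.0 CPM in treated and 97.3 and 101 CPM in untreated libraries. The Zfp488 fold over both genotypes was -0.75 ± 0.17 (adjusted p = 3.27e-04, and -0.97 to -0.56 in fits that left out 1 library). Here wild-type thapsigargin 8 h replicate 2 reached into the untreated range. By genotype the Zfp488 fold was -1.15 in Nrf2 -/- cells (adjusted p = 4.01e-05) and -0.35 in wild-type cells (0.275). Myrf had 169, 129 and 172 CPM in treated and 208, 248 and 431 CPM in untreated Nrf2 -/- cells. In wild-type cells Myrf had 171 and 264 CPM in treated and 224 and 238 CPM in untreated libraries. The Myrf fold over both genotypes was -0.50 ± 0.18 (adjusted p = 0.0155), and the groups overlapped. The Myrf call ended without the library labelled Nrf2 -/- untreated 8 h replicate 3 (-0.31, adjusted p = 0.0973) or the wild-type treated replicate 1 (-0.36, 0.122). By genotype the Myrf fold was -0.91 in Nrf2 -/- cells (adjusted p = 9.41e-04) and -0.09 in wild-type cells (0.821). The folds of Zfp488 and Myrf in Nrf2 -/- cells alone include untreated 8 h replicate 3 and were not refitted without it.

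Set directly against IFN-γ, thapsigargin gave higher levels of 3 members at 1 h (13.9% of all genes) and lower levels of none (10.5%). As lower, none had an unadjusted p below 0.05, and DESeq2 also made 3 calls. Sox8 (0.73 ± 0.14, adjusted p = 1.86e-04) and Sox10 (0.51 ± 0.08, 2.91e-06) were higher without overlap, and Nkx6-2 was higher by 0.62 ± 0.21 (adjusted p = 0.0247). The Nkx6-2 call ended when any of 5 libraries was left out. Among thapsigargin libraries these were Nrf2 -/- replicate 2 (0.0628) and wild-type replicate 2 (0.135), and among IFN-γ libraries Nrf2 -/- replicate 3 (0.056) and wild-type replicates 1 (0.109) and 2 (0.0506). At 8 h, 1 member was higher under thapsigargin (34.1% of all genes) and 5 were lower (33.8%). Those lower were Olig1 (-1.58 ± 0.08, adjusted p = 1.44e-20), Nkx6-2 (-1.24 ± 0.20, 2.72e-06), Olig2 (-0.80 ± 0.06, 1.19e-15), Sox8 (-0.73 ± 0.14, 4.10e-05) and Sox10 (-0.63 ± 0.08, 5.15e-09), each without overlap between the libraries. Olig1, for instance, had 224, 262 and 263 CPM in thapsigargin-treated and 657, 669 and 769 CPM in IFN-γ-treated Nrf2 -/- cells, and 226 and 217 CPM in thapsigargin-treated and 746 and 676 CPM in IFN-γ-treated wild-type cells. Myrf was higher (0.47 ± 0.18, adjusted p = 0.0238), a call that ended without the wild-type replicate 2 of thapsigargin (0.29, 0.212) or of IFN-γ (0.43, 0.0832). For Zeb2 the difference was -0.01 ± 0.07 (adjusted p = 0.877, 95% interval -0.15 to 0.13) and for Tcf7l2 -0.33 ± 0.24 (0.221, -0.82 to 0.15). Without the wild-type thapsigargin replicate 2, Tcf7l2 (-0.61, adjusted p = 0.0487) and Zfp488 (-0.48, 0.0302) were called as lower. Members did not overlap in 2 of 10 cases at 1 h and 5 of 10 at 8 h, against 20% and 53.4% of all genes, and the member medians were 0.23 and -0.48, against -0.01 and 0.01.

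**Figure D4:**
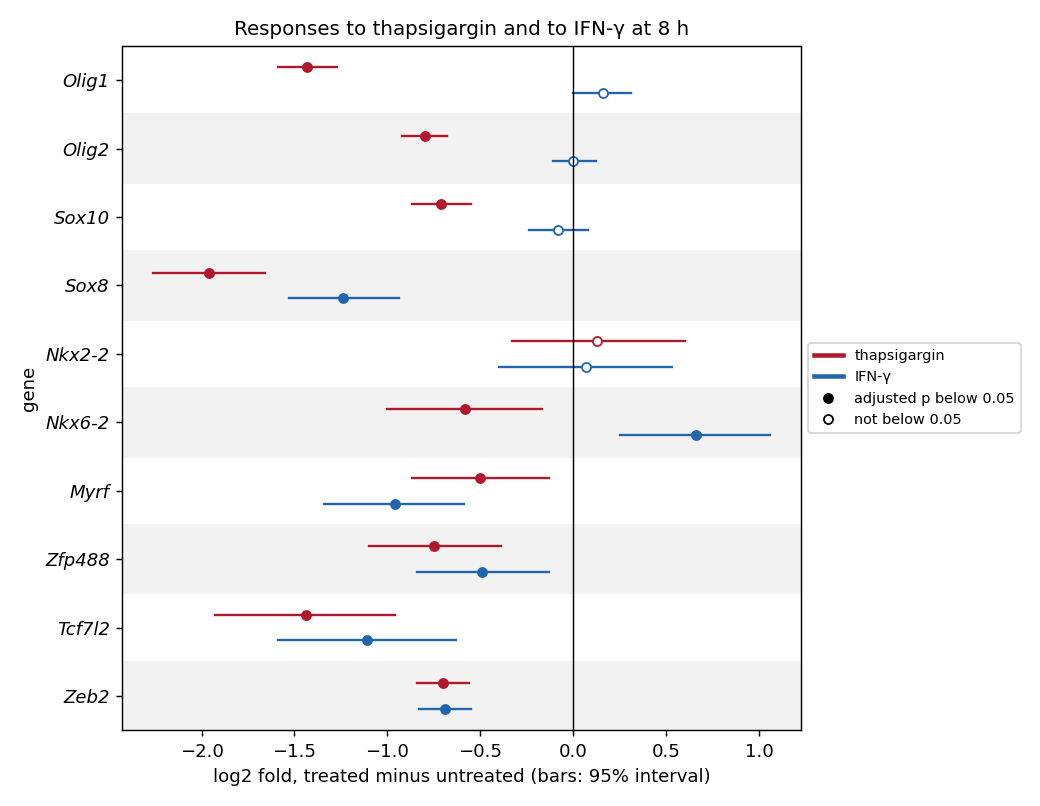
Log2 folds over untreated cells at 8 h (horizontal axis) for thapsigargin and IFN-γ, which share the untreated libraries, by gene and averaged over the genotypes; bars are 95% intervals and filled points have an adjusted p below 0.05. Olig1 sits at -1.43 under thapsigargin and 0.16 under IFN-γ, while Zeb2 sits at -0.70 and -0.69.

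No member was called between Nrf2 -/- and wild-type cells under thapsigargin, under IFN-γ or without treatment, where 0.510%, 0.0547% and 0.0243% of all genes were called by edgeR. At an unadjusted p below 0.05 the members counted 6, 1 and 0, and DESeq2 called none of them, with 170, 53 and 14 calls over all genes. The folds without treatment lay between -0.06 (Nkx6-2, 95% interval -0.35 to 0.23) and 0.15 (Nkx2-2, -0.19 to 0.49), and that of Sox10 was -0.01 (-0.12 to 0.10). Under IFN-γ the member at an unadjusted p below 0.05 was Nkx6-2 (-0.44 ± 0.14, adjusted p = 0.289). Its IFN-γ libraries at 24 h had 28.4, 26.6 and 32.5 CPM in Nrf2 -/- cells, against 67.8 and 29 CPM in wild-type cells. Under thapsigargin the folds at an unadjusted p below 0.05 were -0.55 for Tcf7l2, -0.46 for Myrf, -0.43 for Zfp488, -0.17 for Zeb2, 0.17 for Olig1 and 0.13 for Olig2, with adjusted p between 0.38 and 0.484. Without wild-type thapsigargin 8 h replicate 2 they were -0.27 for Tcf7l2, -0.28 for Myrf, -0.21 for Zfp488 and -0.12 for Zeb2, with adjusted p between 0.88 and 0.99. Proliferation genes were higher in thapsigargin-treated Nrf2 -/- cells in 5 of 10 cases. Xist exceeded 100 CPM in 20 of 30 Nrf2 -/- and in 0 of 20 wild-type libraries, so the make-up of the cultures by sex is not balanced between genotypes and its part in these folds was not tested.

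The difference between genotypes in a response was not called for any member in 6 such comparisons, in each of which edgeR called 0 of all genes (0%). For thapsigargin at 1 and 8 h and IFN-γ at 1, 8, 24 and 48 h, the members at an unadjusted p below 0.05 counted 0, 4, 0, 0, 2 and 1. Over all genes there were 335, 1376, 486, 427, 1237 and 1366 at that limit, and DESeq2 called 1, 2, 1, 2, 13 and 5 genes, no member among them. The 2 at 24 h of IFN-γ were Olig2 (-0.40 ± 0.12, adjusted p = 0.309) and Olig1 (-0.45 ± 0.15, 0.448), whose fold was smaller in Nrf2 -/- than in wild-type cells. Without wild-type IFN-γ 48 h replicate 2, the difference at 48 h was called for Olig1 (0.62, adjusted p = 0.0127) and Sox10 (0.51, 0.0416), when replicate 1 stood alone for its group and was assumed to vary like the others. The 4 under thapsigargin at 8 h, Tcf7l2 (-1.05 ± 0.47), Myrf (-0.83), Zfp488 (-0.79) and Zeb2 (-0.34), had adjusted p-values of 0.58 to 0.59. Without the library labelled Nrf2 -/- untreated 8 h replicate 3 the differences were -0.53 for Tcf7l2, -0.45 for Myrf, -0.42 for Zfp488 and -0.25 for Zeb2 (adjusted p = 0.968 each). Without wild-type thapsigargin 8 h replicate 2 they were -0.48 for Tcf7l2, -0.48 for Myrf, -0.36 for Zfp488 and -0.24 for Zeb2 (adjusted p = 1 each). Both libraries are the highest of their group for Tcf7l2, Myrf and Zfp488.

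**Figure D5:**
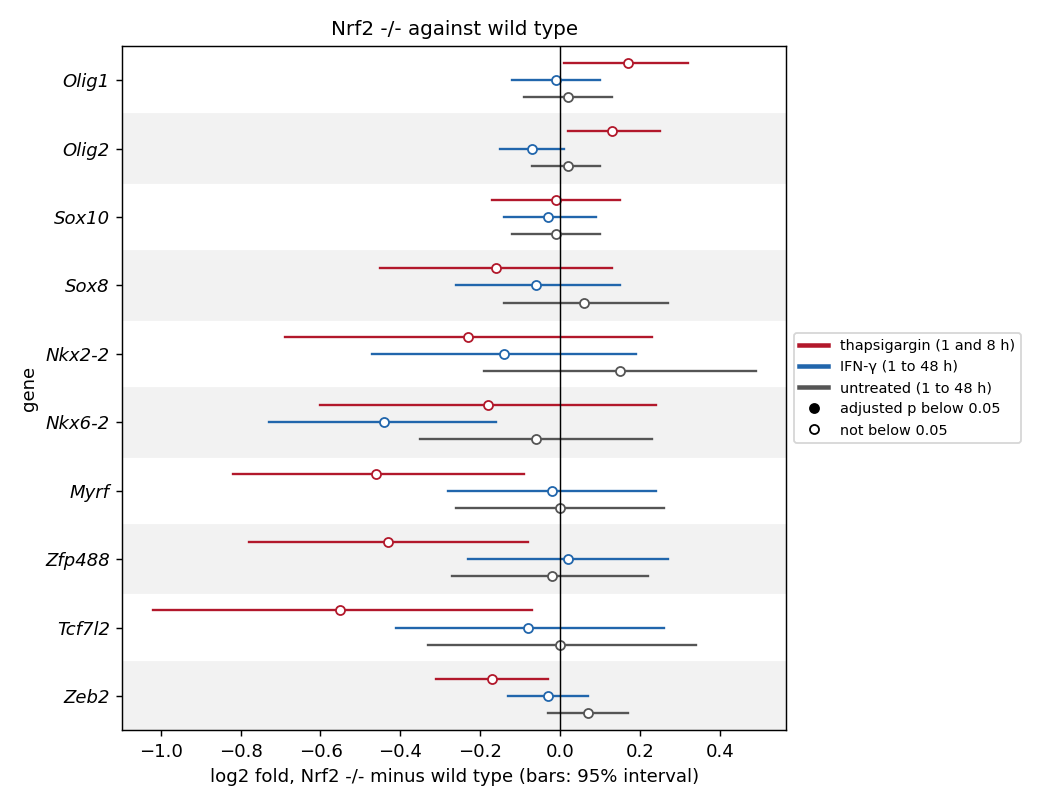
Log2 folds of Nrf2 -/- over wild-type cells (horizontal axis) for each gene within each treatment, averaged over its hours; bars are 95% intervals and open points have an adjusted p of 0.05 or more. No point is filled, and the widest departures are Tcf7l2 (-0.55) and Myrf (-0.46) under thapsigargin.

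Across the 20 group means the members fell into patterns, described here by Pearson's r on log2 CPM with 0.5 added, over groups that share hours and libraries of like depth. The closest pairs were Zfp488 and Tcf7l2 (0.92), Olig1 and Olig2 (0.89), Myrf and Tcf7l2 (0.86), Tcf7l2 and Zeb2 (0.84), and Zfp488 and Zeb2 (0.80). Within groups, 1 library was highest for Myrf, Zfp488 and Tcf7l2 alike in 14 of 20 groups. For Olig1 and Olig2 this was so in 17 of 20. The part of single libraries in these r values was not tested. Sox8 ran closer to Olig2 (0.79) than to its relative Sox10 (0.48), and Nkx2-2 ran against Myrf (-0.74) and Tcf7l2 (-0.59). Of 12554 genes compared over the 20 groups, those most like Olig2 were Mpi (0.968), Basp1 (0.967) and Podxl2 (0.966). Those most like Sox10 were Phax (0.902), Gtf3c5 (0.898) and Nacad (0.884), and those most like Myrf were Clip3 (0.963), Sema4d (0.957) and Mtmr10 (0.956).

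At the transcript level, from estimated counts, Olig1, Olig2, Sox10 and Zfp488 have a single annotated transcript, while Tcf7l2 has 22 and Zeb2 29. Zeb2-212, the long transcript that starts at the upstream window printed above, held 58.3 to 63.1% of the Zeb2 estimated counts in untreated libraries at 48 h, against 74.3 to 81.8% at 1 h. The shorter Zeb2-202 held 20.8 to 26%, against 7.92 to 13.2%. Neither range overlapped between the hours. At 48 h Zeb2-202 held 5.97 to 17.7% in IFN-γ-treated libraries, below all untreated ones. Nkx2-2-203 held 15.9 to 25.2% of the Nkx2-2 estimated counts in IFN-γ-treated and 11.7 to 18.4% in untreated libraries at 48 h, with overlap, and 23.3 to 30.5% in untreated libraries at 1 h. For Nkx6-2, the transcript annotated as subject to nonsense-mediated decay, Nkx6-2-201, held 79.8 to 93.0% in IFN-γ-treated and 68.8 to 82.7% in untreated libraries at 48 h, with overlap. Myrf-201 stayed within 75.7 to 84.2% in all untreated and IFN-γ-treated libraries at 1 and 48 h. These shares were not tested.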

How the data were processed

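Gene-level read counts of 50 libraries were taken from the deposited gene table; per the submitters' processing notes, STAR and featureCounts were used upstream, with versions, genome build and strand setting not given in the sources used here. A deposited transcript table holds the authors' kallisto estimated counts, used for transcript shares and, summed per gene and rounded, for 1 alternative (99.79% of them fell to a gene of the table). Of 39056 genes, 12061 had no count in any library and 38872 matched GENCODE M21 symbols. Groups came from the labels. Replicate numbers were given in library order and pair nothing in any fit.

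Genes were kept by filterByExpr (10 counts, 15 in total), which left 16460, and scaled by TMM. A model with 20 group means was fitted with edgeR 4.0.16 (R 4.3.3, robust quasi-likelihood, common dispersion 0.00983). Contrasts gave both genotypes equal weight, and calls are Benjamini-Hochberg adjusted p below 0.05 over all tested genes. CPM divide each count by the TMM library size, and bars are 95% intervals. DESeq2 1.42.0, its size factors, no filter, no robust step, the kallisto sums, the 3 libraries of conflicting label left out or moved, single genotypes and each library left out were alternatives. The fit was tested on simulated data.

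The members and gene lists were chosen with earlier results of these data known. All 10 members are described; from the other lists the called genes with the largest changes (up to 4 a list and comparison) were named, and genes alike to Olig2, Sox10 and Myrf are the 3 of highest r.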

Additional observations from a re-analysis of the deposited data

Results flagged for a closer look

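The IFN-γ response at 48 h differed from that at 8 h, by the test of the difference itself (averaged over the genotypes), for 3 members: Sox8 by 1.55 on the log2 scale (adjusted p = 1.60e-07), Zeb2 by 0.51 (4.95e-05) and Olig2 by 0.40 (adjusted p = 1.23e-04). The folds at 48 h and at 8 h were 0.31 and -1.24 for Sox8, -0.18 and -0.69 for Zeb2, and 0.40 and 0 for Olig2. Mean Sox8 was 213 CPM at 8 h and 222 CPM at 48 h in treated cells, and 514 and 176 CPM in untreated cells. Mean Zeb2 went from 502 to 623 CPM in treated and from 823 to 708 CPM in untreated cells. Mean Olig2 went from 505 to 345 CPM in treated and from 505 to 260 CPM in untreated cells. The cause of these differences was not tested.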

How the results depend on the processing

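Of 220 member folds 70 were called. All 70 kept their direction in every alternative run, and 52 stayed past the threshold in each fit that left out 1 library. Calls lost numbered 0 with DESeq2 size factors, without robust estimation and with DESeq2, 9 without the filter on low counts, 1 with the kallisto sums, 1 with the 3 libraries of conflicting label left out or counted as wild type, 14 in Nrf2 -/- cells alone and 25 in wild-type cells alone, where fewer libraries enter. Members called numbered, without the filter, 0 of 1 for IFN-γ at 1 h, 5 of 8 for IFN-γ at 48 h and 1 of 2 for thapsigargin at 1 h. In Nrf2 -/- cells alone they numbered 0 for IFN-γ at 1 h, 5 of 8 at 24 h, 5 of 8 at 48 h and 1 of 2 for thapsigargin at 1 h. In wild-type cells alone they numbered 0 for IFN-γ at 1 h, 3 of 6 at 8 h, 3 of 8 at 48 h, 0 for thapsigargin at 1 h and 3 of 7 for untreated cells between 8 and 24 h. Leaving out 1 library gave 0 to 1 member for IFN-γ at 1 h, 5 to 7 at 48 h, 1 to 2 for thapsigargin at 1 h, and 0 to 2 for the genotype difference under IFN-γ at 48 h. Without TMM, 138 of 200 group means of CPM moved by under 1 SD, by at most 9.57%. No paired analysis was possible because the labels give no replicate numbers to pair by, and those used here follow library order. That reason covers the labels only, since levels of sex-linked transcripts match some libraries across treatments. In the Nrf2 -/- groups the library with Xist below 100 CPM was replicate 2 at 1 h, 3 at 8 h, 3 at 24 h and 1 at 48 h in every treatment. Ddx3y in Nrf2 -/- replicates 1, 2 and 3 at 1 h was 0.0829, 106 and 1.39 CPM untreated. It was 0.0260, 109 and 1.16 CPM under IFN-γ and 0.105, 105 and 1.01 CPM under thapsigargin. Wild-type Xist at 8 h gave no such match (2.90 and 2.66 CPM untreated, 0.394 and 3.12 CPM under IFN-γ). These levels are a hint from the data that libraries of 1 hour may share cultures. A fit blocked on such matches, possible in part, was not run, and its effect on the treatment p-values was not tested. Nkx6-2, Nkx2-2 and Tcf7l2 had the fewest reads, and groups of 2 or 3 libraries limit every fold.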
